A study of Homo sapiens with 6 samples.

Results

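The 10 genes described here encode the 5 NF-kB subunits (NFKB1, NFKB2, REL, RELA and RELB), 3 genes that restrain NF-kB (NFKBIA, NFKBIE and TNFAIP3) and 2 genes that NF-kB is known to induce (TNFAIP2 and BIRC3). They were picked by gene symbol from the 32692 genes of the deposited table, and each symbol matched 1 row. RNA was sequenced from DU145, a human cell line grown from a prostate carcinoma, that had been kept for 24 h in 5 µM of the compound OTI-611 or in its solvent DMSO. Each group held 3 libraries, numbered 1 to 3. All 6 come from the same cell line with no genetic change named in the labels, and the series title names the chromatin remodeller CHD1L. Nothing in the labels ties the libraries of a group to different cultures, and the p-values below reflect the spread between these libraries alone, which may be technical.

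NF-kB factors are pairs of Rel-family proteins that bind short DNA motifs called kB sites. In resting cells inhibitor proteins of the IkB family hold the pairs in the cytoplasm. In the canonical arm, a receptor such as the TNF receptor activates the IKK kinases, which mark IkB for destruction and release the pair into the nucleus. In the non-canonical arm, the kinase NIK drives the processing of the NFKB2 protein, and the product pairs mainly with RELB. Several induced genes, NFKBIA and TNFAIP3 among them, shut the pathway off again, so their messenger RNA is often read as a trace of past NF-kB activity. Protein levels, IkB destruction and nuclear entry were not measured here.

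Many genes that NF-kB induces, some of its own subunit genes among them, carry kB sites near their start, so the promoters of the 10 genes were searched for such letters. RefSeq promoter windows on GRCh38.p14, from 250 bases before to 50 bases after a transcription start, were found for 8 of the 10 genes and not for RELB or NFKBIE. These 8 genes had 12 windows, since NFKB1 and RELA have 2 starts and NFKB2 has 3. Both strands were searched for the kB consensus, a motif of 10 bases, and overlapping matches were merged into 1 stretch. The 12 windows held 11 such stretches in 6 genes, which were NFKB1, NFKB2, REL, NFKBIA, TNFAIP3 and BIRC3. The windows of RELA and TNFAIP2 held none. Of all 35116 RefSeq windows of this length, 11.3% held at least 1 stretch and 0.994% held at least 2. By gene, 13.3% of 27305 genes had a stretch in some window. A looser pattern, GGG followed by any 5 bases and then CC, includes every consensus match. It was found in each of the 12 windows and in 58.7% of all windows. A match in these letters is a description of the sequence and does not show that NF-kB binds there, and the absence of one says nothing of sites elsewhere.

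NFKBIA and TNFAIP3 are shown because both carry stretches just before the start, both are feedback genes, and their messenger RNA moved in opposite directions with OTI-611. BIRC3 is added as an induced gene that fell, and NFKB1 as a subunit gene that did not pass the test. The 250 bases before the NFKBIA start lie at chr14:35404750-35404999 on the minus strand. Capitals in the lines below mark a consensus match, and each is written 5′ to 3′ on the strand of its gene.
NFKBIA: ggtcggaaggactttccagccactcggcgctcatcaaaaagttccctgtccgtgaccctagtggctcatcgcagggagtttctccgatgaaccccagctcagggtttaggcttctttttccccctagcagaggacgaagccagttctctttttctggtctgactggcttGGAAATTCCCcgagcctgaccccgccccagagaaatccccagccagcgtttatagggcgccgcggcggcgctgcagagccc
TNFAIP3 first stretch: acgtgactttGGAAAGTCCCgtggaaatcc
TNFAIP3 second stretch: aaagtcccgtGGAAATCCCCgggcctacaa
BIRC3 first stretch: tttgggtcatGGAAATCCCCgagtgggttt
BIRC3 second stretch: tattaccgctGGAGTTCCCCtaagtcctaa
NFKB1: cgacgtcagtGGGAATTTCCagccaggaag

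The NFKBIA stretch begins 81 bases before the RefSeq start. Each of the shorter pieces was printed with 10 bases on either side of its stretch. The stretches of TNFAIP3 begin 67 and 55 bases before its RefSeq start, and the printed pieces lie at chr6:137867182-137867211 and chr6:137867194-137867223 on the plus strand. Both stretches lie inside an exon of TNFAIP3 in GENCODE release 29, whose gene starts further upstream. Those of BIRC3 begin 199 and 135 bases before the start, and the pieces printed with their flanks lie at chr11:102317275-102317304 and chr11:102317339-102317368 on the plus strand. The NFKB1 stretch begins 49 bases before the first of its starts, and the printed piece lies at chr4:102501300-102501329 on the plus strand. The same letters GGAAATCCCC stand before TNFAIP3, which rose with OTI-611, and before BIRC3, which fell. NFKB2 has 4 stretches over 2 of its 3 starts, and REL has 1, which begins 47 bases before the start. The REL stretch lies inside an exon of REL in GENCODE release 29. So do the NFKB2 stretches in exons of NFKB2, save that beginning 176 bases before a start.

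**Figure D1:**
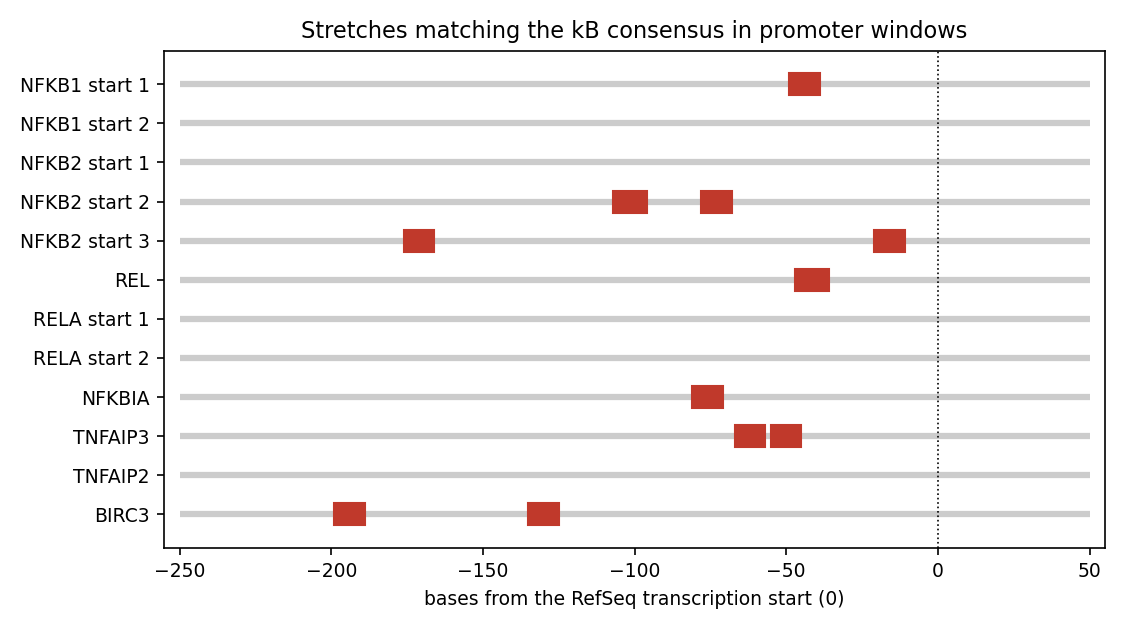
Positions of stretches matching the kB consensus (red blocks) in the 12 RefSeq promoter windows of 8 genes. The horizontal axis is the distance in bases from the transcription start at 0, and each grey bar is a window from 250 bases before to 50 bases after it. All 11 stretches lie before a start, and the windows of RELA and TNFAIP2 hold none.

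All libraries but DMSO 1 hold decimal values that behave as RPKM, which corrects a read number for the length of the gene and the depth of the library. In DMSO 1 every value is a whole number, and these were taken as RPKM with the decimals missing. In genes between 1 and 50 RPKM it lay 0.51 to 0.53 RPKM under the average of the other DMSO libraries. In genes between 50 and 200 RPKM, NFKBIA among them, it lay 0.918 ± 0.098 RPKM (SE) under that average. That is a wider gap than the lost decimals of the lower genes. Lost decimals amount to less than 1 RPKM. For NFKBIA, DMSO 1 stood at 120 RPKM against 135 and 124 RPKM in DMSO 2 and DMSO 3, a gap beyond them. For BIRC3, DMSO 1 stood at 23 RPKM against 23.3 RPKM in each of these, a gap within them. What else sets the DMSO libraries apart was not tested. DMSO 1 was the lowest or tied lowest DMSO library for all 10 genes, as for 64.4% of the genes tested. The results for the 10 genes are therefore given with and without it. The spacing of low values gave estimated depths of 37300000, 37370000 and 37740000 reads for OTI-611 1 to 3 and of 30680000 and 32410000 reads for DMSO 2 and DMSO 3, and no estimate for DMSO 1. At those depths REL, the lowest of the 10 genes, had about 532 to 557 reads per OTI-611 library and 531 and 541 reads in DMSO 2 and DMSO 3. Of the 5 epithelial markers, whose sum was 471 to 517 RPKM with OTI-611 and 503 to 529 RPKM with DMSO, KRT8, KRT18 and KRT19 stood between 94.7 and 289 RPKM in every library. EPCAM stood at 13.0, 15.2 and 13.1 RPKM with OTI-611 and at 13, 14.6 and 14.0 RPKM with DMSO, and CDH1 at 1.45, 1.46 and 1.71 RPKM with OTI-611 and at 4, 4.39 and 4.80 RPKM with DMSO. With OTI-611, KRT8 (-0.50) and CDH1 (-1.09) fell and KRT19 (0.13) rose on the log2 scale, the last a call lost in 7 of 15 alternatives, such as without DMSO 1 (limma adjusted p = 0.11), and the part of these shifts in the results below was not tested. The prostate antigen gene KLK3 did not exceed 0.0595 RPKM. The 7 matched markers of leukocytes, endothelium and fibroblasts (9 listed) summed to between 0.211 and 0.239 RPKM with OTI-611 and to between 0 and 1.31 RPKM with DMSO. The 0 is DMSO 1, where each of these markers stood at the whole number 0. COL1A1 alone had 0.661 and 0.735 RPKM in DMSO 2 and DMSO 3, above the sums with OTI-611. In such bulk samples, less RNA per cell and fewer cells of a kind cannot be told apart.

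With OTI-611, TNFAIP3, RELB and RELA rose, and NFKBIA, TNFAIP2, BIRC3 and NFKBIE fell, in limma's test at an adjusted p of 0.05 over all 11978 genes tested. NFKB1, NFKB2 and REL did not pass. Thus 7 of 10 genes passed, against 65.2% of all genes tested, so the share is close to that of the whole table. By direction, 3 rose, against 27.8% of all genes, and 4 fell, against 37.3%. Without DMSO 1 the same 7 genes passed, against 68.2% of the 12119 genes then tested, with 3 higher against 26.3% and 4 lower against 41.9%. The groups did not overlap in 6 of the 10 genes, against 70.2% of all genes, with 3 higher against 30.5% and 3 lower against 39.7%. REL and NFKBIE overlapped only through the whole numbers of DMSO 1. TNFAIP3, NFKBIA, TNFAIP2 and BIRC3 differed by at least 0.5 on the log2 scale, 4 of 10 genes against 23.2% of the genes tested, and TNFAIP3 had a larger absolute change than 98.1% of them.

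**Figure D2:**
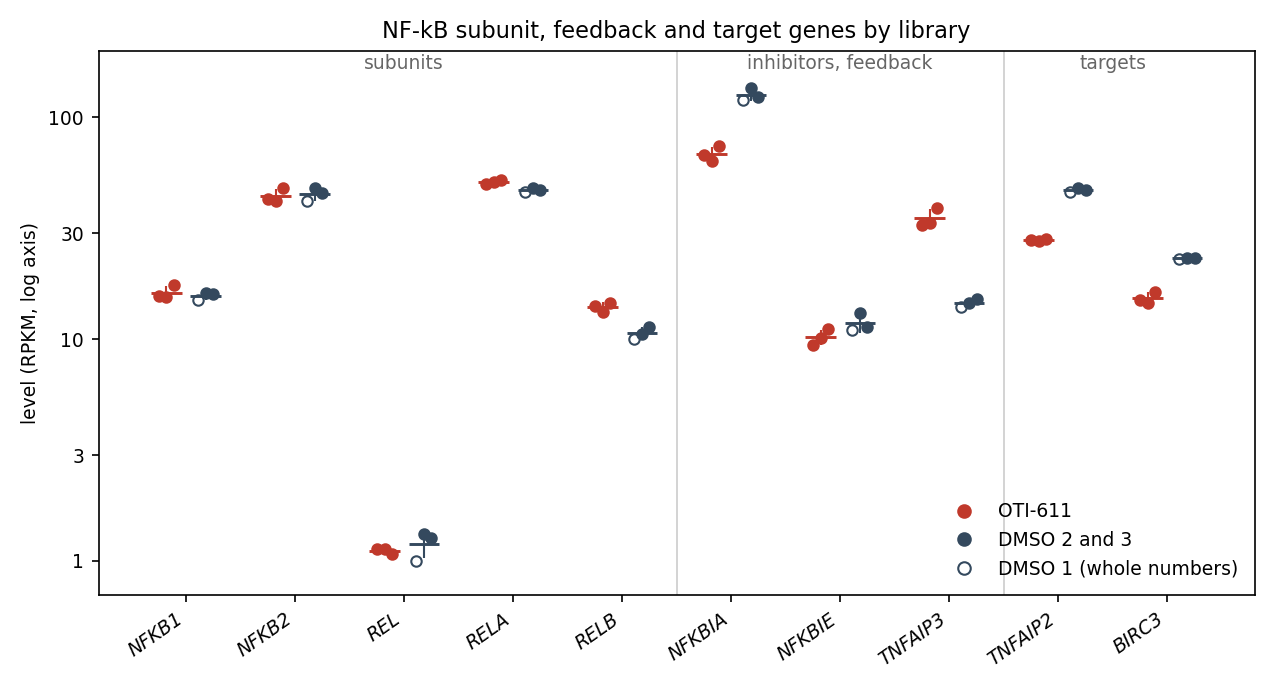
Level of the 10 genes in each library, in RPKM on a log axis, with OTI-611 in red and DMSO in dark blue. Points are libraries, the open point is DMSO 1, and horizontal and vertical lines are the mean and SD of 3 libraries. The OTI-611 points of TNFAIP3 lie between 32.8 and 39.0 RPKM, above all DMSO points, and those of NFKBIA between 63.4 and 74.1 RPKM, below all DMSO points.

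Among the subunits, RELB and RELA rose and the others did not pass. RELB, the transactivating partner of the processed NFKB2 protein, had 14.1, 13.2 and 14.5 RPKM in the OTI-611 libraries, against 10, 10.5 and 11.4 RPKM in DMSO 1, 2 and 3. All OTI-611 values lay above all DMSO values. The mean was 14.0 ± 0.67 RPKM with OTI-611 and 10.6 ± 0.71 RPKM with DMSO (SD, n = 3 each), and the log2 fold change, on values with 1 added as throughout, was 0.36 ± 0.055 (SE, limma adjusted p = 3.19e-04). Without DMSO 1 it was 0.32 ± 0.055 (SE, limma adjusted p = 0.0016). RELA, the main transactivating subunit of the canonical arm, had 50.2, 51.2 and 52.3 RPKM in the OTI-611 libraries, against 46, 48.0 and 47.1 RPKM with DMSO. The groups did not overlap, but the difference was small, a 1.09-fold rise of the mean with a log2 fold change of 0.12 ± 0.029 (SE, limma adjusted p = 0.0047), and 0.11 without DMSO 1 (limma adjusted p = 0.020). In absolute size, 25.3% of the genes tested changed less than RELA.

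NFKB1 and NFKB2 encode precursors that are cut down to DNA-binding subunits with no transactivation domain of their own. NFKB1 had 15.7, 15.5 and 17.5 RPKM with OTI-611, against 15, 16.2 and 16.0 RPKM with DMSO. NFKB2 had 42.9, 41.8 and 48.2 RPKM with OTI-611, against 42, 48.3 and 45.7 RPKM with DMSO. The groups overlapped for both. The log2 fold change of NFKB1 was 0.041, with a 95% interval from -0.078 to 0.16 (limma adjusted p = 0.52), and that of NFKB2 was -0.033, with an interval from -0.17 to 0.11 (limma adjusted p = 0.66). With DMSO 1 left out they were 0.0090 for NFKB1 (limma adjusted p = 0.89) and -0.085 for NFKB2 (limma adjusted p = 0.26). REL, which encodes the subunit best known from lymphoid cells, had 1.13, 1.13 and 1.07 RPKM with OTI-611, against 1, 1.31 and 1.27 RPKM with DMSO. The whole number of DMSO 1 decides whether its groups overlap, since the OTI-611 values lay below DMSO 2 and DMSO 3 and above DMSO 1. The log2 fold change of REL was -0.054, with an interval from -0.34 to 0.23 (limma adjusted p = 0.73). Leaving out DMSO 1 gave -0.12, with an interval from -0.32 to 0.077 (limma adjusted p = 0.24). The level of REL is uncertain for a further reason, because a non-coding gene on the same strand shares 43.3% of its exon bases in GENCODE release 29.

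RPKM is a level per length, so the 5 subunits were ranked. The order rests on the gene lengths behind the values, whose annotation is not established, and on a level of REL that is uncertain. With OTI-611 the order was RELA at 51.3 ± 1.1 RPKM, NFKB2 at 44.3 ± 3.4, NFKB1 at 16.2 ± 1.1, RELB at 14.0 ± 0.67 and REL at 1.11 ± 0.034 RPKM (SD, n = 3), with no overlap between neighbours. With DMSO the order was the same, but RELA at 47.0 ± 1.0 RPKM and NFKB2 at 45.3 ± 3.2 RPKM overlapped. The summed level of the 5 genes was 124, 123 and 134 RPKM with OTI-611, against 114, 124 and 121 RPKM with DMSO, ranges that overlap. Within that sum RELB made up 11.4%, 10.8% and 10.9% with OTI-611, against 8.77%, 8.45% and 9.39% with DMSO, and did not overlap between the groups. NFKB2 made up 34.9 ± 1.1% with OTI-611 and 37.8 ± 1.0% with DMSO, and RELA 40.4 ± 1.3% with OTI-611 and 39.2 ± 0.96% with DMSO (SD, n = 3 each). The ratio of RELB to NFKB2, which does not depend on library scaling, was 0.329, 0.317 and 0.302 with OTI-611, against 0.238, 0.218 and 0.249 with DMSO. That is the most extreme split of 3 against 3 libraries, for which a two-sided exact permutation test gives p = 0.1, the smallest this design allows. The RELB and NFKB2 values given above already fixed this split, whichever libraries of a group were matched, so its p adds no support.

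**Figure D3:**
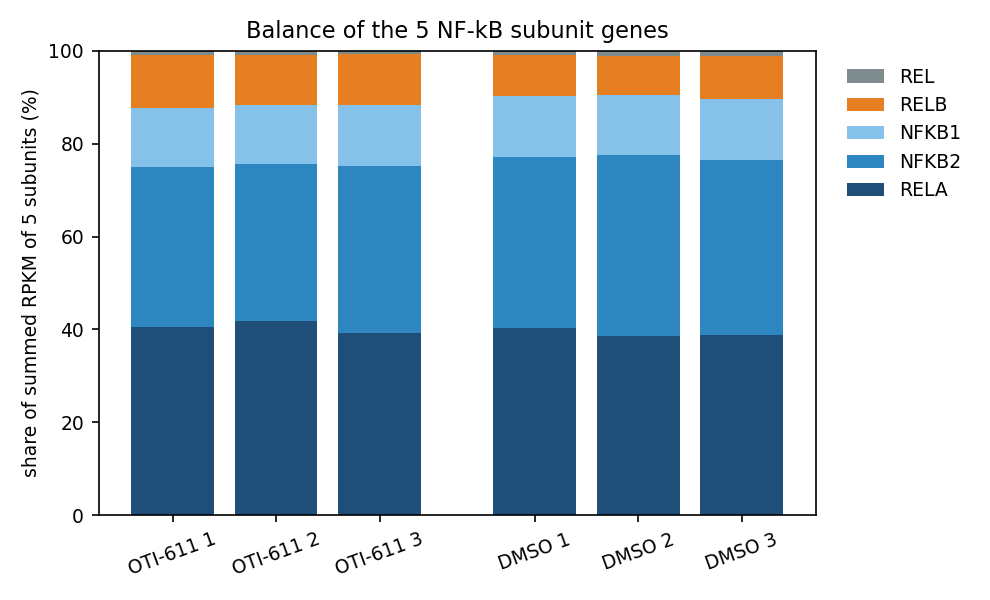
Share of each subunit gene in the summed RPKM of the 5 subunit genes, in percent, for each library, with OTI-611 on the left and DMSO on the right. RELA and NFKB2 make up most of every bar, and the RELB part is between 10.8% and 11.4% with OTI-611 and between 8.45% and 9.39% with DMSO.

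The genes that restrain NF-kB moved in opposite directions. NFKBIA encodes IkB alpha, the inhibitor that is destroyed on canonical signalling and then made anew from an NF-kB-driven gene. It had 67.4, 63.4 and 74.1 RPKM in the OTI-611 libraries, against 120, 135 and 124 RPKM in the DMSO libraries. Every OTI-611 value was below every DMSO value. The mean was 68.3 ± 5.4 RPKM with OTI-611 and 126 ± 7.9 RPKM with DMSO (SD, n = 3 each), 0.541 of the DMSO mean, with a log2 fold change of -0.88 ± 0.059 (SE, limma adjusted p = 1.66e-06). Without DMSO 1 the log2 fold change was -0.91 ± 0.068 (SE, limma adjusted p = 3.32e-05). NFKBIA had the highest RPKM of the 10 genes in both groups, and 96.9% of the genes tested had a lower DMSO mean.

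TNFAIP3 encodes a ubiquitin-editing enzyme that acts at the receptor complex, upstream of IKK, and is also induced by NF-kB. It had 32.8, 33.5 and 39.0 RPKM in the OTI-611 libraries, against 14, 14.6 and 15.2 RPKM with DMSO. The groups lay far apart, and OTI-611 3 was the highest library. The mean was 35.1 ± 3.4 RPKM with OTI-611 and 14.6 ± 0.60 RPKM with DMSO (SD, n = 3 each), a 2.40-fold rise and 2.36-fold against DMSO 2 and DMSO 3 alone. The log2 fold change was 1.21 ± 0.063 (SE, limma adjusted p = 3.80e-07), and 1.18 ± 0.073 (SE, limma adjusted p = 1.70e-05) without DMSO 1. The ratio of TNFAIP3 to NFKBIA within a library was 0.486, 0.528 and 0.527 with OTI-611, against 0.117, 0.108 and 0.123 with DMSO. Its mean was 4.44-fold higher with OTI-611 (two-sided exact permutation p = 0.1, the smallest possible). Of 6 such ratios computed, each gave this p, before and after Benjamini-Hochberg adjustment. TNFAIP3 rose and NFKBIA fell without overlap, so the split of their ratio was fixed and its p adds no support. The ratio of NFKBIA to RELA, the subunit it binds, was 1.33 ± 0.089 with OTI-611 and 2.68 ± 0.11 with DMSO (SD, n = 3 each; two-sided exact permutation p = 0.1). That split was fixed too, since NFKBIA fell and RELA rose, each without overlap.

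NFKBIE encodes IkB epsilon, a slower-acting inhibitor, and it had 9.39, 10.2 and 11.1 RPKM with OTI-611, against 11, 13.1 and 11.3 RPKM with DMSO. NFKBIE overlapped between the groups only through the whole number of DMSO 1, since all OTI-611 values lay below DMSO 2 and DMSO 3. Its ratio to RELA was 0.187, 0.198 and 0.212 with OTI-611, against 0.239, 0.274 and 0.241 with DMSO, and did not overlap (two-sided exact permutation p = 0.1). The NFKBIE and RELA values already fixed that split, so its p adds no support to the NFKBIE call. The log2 fold change of NFKBIE was -0.19 ± 0.074 (SE, limma adjusted p = 0.0455), just past the threshold, or -0.24 if DMSO 1 was left out (limma adjusted p = 0.034). The call was lost on leaving out DMSO 2 (limma adjusted p = 0.16), DMSO 3 (limma adjusted p = 0.052), OTI-611 1 (limma adjusted p = 0.15) or OTI-611 2 (limma adjusted p = 0.092). It was also lost after quantile normalization (limma adjusted p = 0.084) and after rescaling to the median log ratio (limma adjusted p = 0.10).

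**Figure D4:**
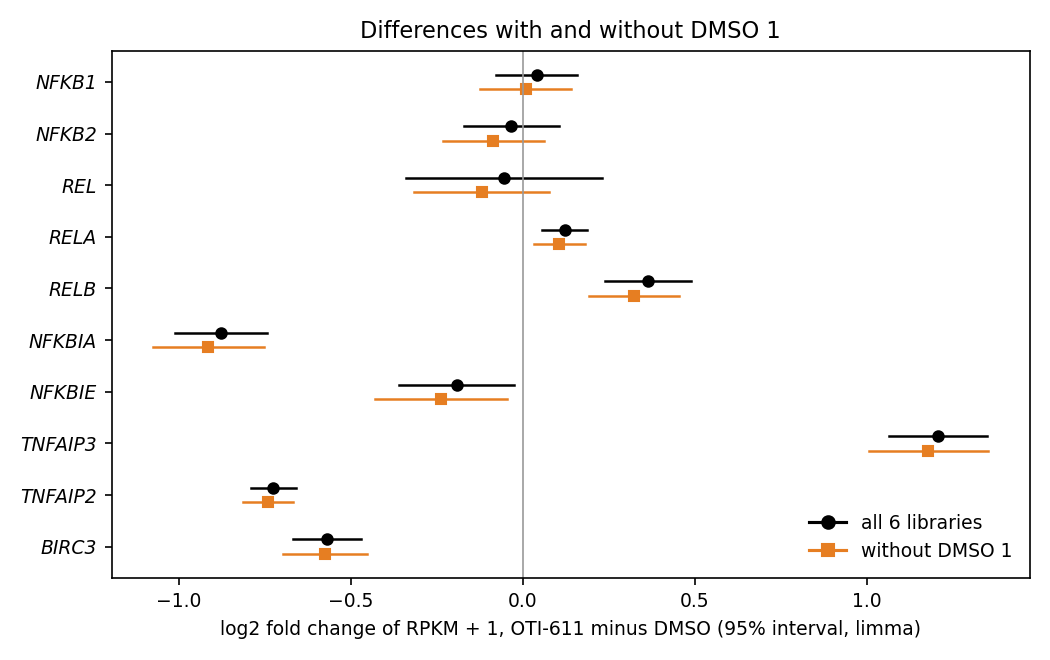
Log2 fold change of RPKM + 1 (OTI-611 minus DMSO) with its 95% interval from limma for each of the 10 genes, for all 6 libraries (black circles) and without DMSO 1 (orange squares). The pairs lie close together for every gene. The intervals of NFKB1, NFKB2 and REL include 0, and TNFAIP3 at 1.21 and NFKBIA at -0.88 are the largest differences.

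Both induced genes fell. TNFAIP2, a gene induced by TNF and linked to membrane protrusions between cells, had 28.0, 27.8 and 28.2 RPKM with OTI-611, against 46, 48.0 and 46.9 RPKM with DMSO. The libraries of each group agree closely, and the groups did not overlap. The mean was 28.0 ± 0.24 RPKM with OTI-611 and 47.0 ± 0.99 RPKM with DMSO (SD, n = 3 each), with a log2 fold change of -0.72 ± 0.029 (SE, limma adjusted p = 8.11e-08) and of -0.74 without DMSO 1 (limma adjusted p = 4.23e-06). BIRC3, an inhibitor-of-apoptosis protein and ubiquitin ligase at the TNF receptor, had 15.0, 14.6 and 16.4 RPKM with OTI-611, against 23, 23.3 and 23.3 RPKM with DMSO. Again no OTI-611 value reached a DMSO value. The log2 fold change came to -0.57 ± 0.044 (SE, limma adjusted p = 4.08e-06), or to -0.58 if DMSO 1 was left out (limma adjusted p = 7.66e-05). BIRC2, the neighbouring paralogue that works in the same complex, was singled out after its values were seen. It had 44.7, 42.6 and 45.3 RPKM with OTI-611, against 41, 38.6 and 39.6 RPKM with DMSO, a log2 fold change of 0.15 (limma adjusted p = 0.0039). The ratio of BIRC3 to BIRC2 was 0.347 ± 0.013 with OTI-611 and 0.585 ± 0.022 with DMSO (SD, n = 3 each; two-sided exact permutation p = 0.1). As BIRC3 fell and BIRC2 rose, each without overlap, this split was fixed and its p adds no support. The handling of reads that match both paralogues is not given in the sources used here.

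Among the OTI-611 libraries, OTI-611 3 had the highest value in 9 of the 10 genes, all but REL, whereas it was the highest in 29.4% of the genes tested. In NFKB2 it stood at 48.2 RPKM against 42.9 and 41.8 RPKM in OTI-611 1 and 2. Without OTI-611 3 the log2 fold change of TNFAIP3 was 1.13 and that of NFKBIA was -0.94. The part of this library in the other values was not tested beyond leaving it out.

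In GENCODE release 29 on GRCh38, all 10 genes are protein coding. NFKB1 (ENSG00000109320) lies on chromosome 4 from 102501329 to 102617302, NFKB2 (ENSG00000077150) on chromosome 10 from 102394110 to 102402529 and REL (ENSG00000162924) on chromosome 2 from 60881521 to 60931610. RELA (ENSG00000173039) lies on chromosome 11 from 65653596 to 65663094, and BIRC3 (ENSG00000023445) on the same chromosome from 102317450 to 102339403. RELB (ENSG00000104856) lies on chromosome 19 from 45001430 to 45038198. NFKBIA (ENSG00000100906) and TNFAIP2 (ENSG00000185215) lie on chromosome 14, from 35401511 to 35404749 and from 103123442 to 103137439. NFKBIE (ENSG00000146232) and TNFAIP3 (ENSG00000118503) lie on chromosome 6, from 44258166 to 44265788 and from 137867188 to 137883312. Besides REL, an overlap with exons of another gene was found for TNFAIP3 (1.88% of its exon bases) and RELA (0.165%), both with genes on the opposite strand.

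Around the 10 genes, 118 other genes of the pathway were listed by role in 7 lists. Of the 98 that could be tested, 41 rose, 32 fell and 25 did not pass. The counts of each list stand against 27.8% of all genes tested that rose and 37.3% that fell. The share that passed was 74.5%, against 65.2% of all genes, and the median log2 fold change was 0.075, against -0.054 over all genes tested.

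Of 5 other IkB genes listed, 3 could be tested, of which 1 rose, 1 fell and 1 did not pass. NFKBIZ, which encodes a nuclear IkB protein that co-activates some NF-kB targets, had 7.77, 8.97 and 8.28 RPKM with OTI-611, against 3, 4.21 and 3.92 RPKM with DMSO. Its log2 fold change was 0.99 ± 0.099 (SE, limma adjusted p = 2.02e-05), or 0.88 if DMSO 1 was left out (limma adjusted p = 3.68e-05). BCL3, a nuclear IkB protein that binds the processed NFKB1 and NFKB2 products, had 6.82, 5.99 and 8.43 RPKM with OTI-611, against 16, 17.4 and 17.5 RPKM with DMSO. Its log2 fold change was -1.16 ± 0.096 (SE, limma adjusted p = 5.98e-06). NFKBID stood at 0.24 and did not pass (limma adjusted p = 0.11), although it did without DMSO 3 (limma adjusted p = 0.014), after quantile normalization (limma adjusted p = 0.0092) and after rescaling to the median log ratio (limma adjusted p = 0.022). NFKBIB was listed at 0 in 5 libraries and NFKBIL1 at up to 0.0912 RPKM, and in a table without counts a value of 0 can be a failed estimate.

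Of the 7 genes of the IKK and NIK kinases and their scaffold, 2 rose, 4 fell and 1 missed the threshold (median -0.14). MAP3K14, which encodes NIK, the kinase that starts the non-canonical arm, had 9.32, 9.62 and 8.96 RPKM with OTI-611, against 28, 25.8 and 28.1 RPKM with DMSO. The groups lay far apart, with a log2 fold change of -1.46 ± 0.045 (SE, limma adjusted p = 2.16e-08). Other genes, the largest part being the antisense gene MAP3K14-AS1, cover 12.3% of its exon bases, and the strand setting of the counting is not given in the sources used here. IKBKG, the regulatory subunit of IKK, had 9.54, 9.37 and 9.50 RPKM with OTI-611, against 5, 6.46 and 5.96 RPKM with DMSO, a log2 fold change of 0.63. IKBKB, a catalytic subunit, rose by 0.21 on the log2 scale, and CHUK, the other catalytic subunit, stood at -0.063 and did not pass (limma adjusted p = 0.12). The related kinase genes IKBKE (-0.62) and TBK1 (-0.21) fell too, and TBK1 shares 14.7% of its exon bases with other genes. TANK fell by 0.14, a call lost without DMSO 3 (limma adjusted p = 0.14), without OTI-611 2 (limma adjusted p = 0.13) or OTI-611 3 (limma adjusted p = 0.062), after quantile normalization (limma adjusted p = 0.071) and after rescaling to the median log ratio (limma adjusted p = 0.16), besides 3 further alternatives.

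Of 13 receptor genes listed, 9 could be tested, and 3 rose, 3 fell and 3 did not pass. TNFRSF1A, the main TNF receptor, had 39.3, 37.5 and 39.6 RPKM with OTI-611, against 80, 81.7 and 84.2 RPKM with DMSO. That is a log2 fold change of -1.06 ± 0.032 (SE, limma adjusted p = 1.81e-08). IL1R1, the interleukin-1 receptor, stood at -0.50 and CD40 at -0.41, and both fell, while TNFRSF12A, the receptor for TWEAK, at 0.58 and IL1RAP, the partner chain of IL1R1, at 0.45 both rose. LTBR, which feeds the non-canonical arm, rose by 0.10, a call that ended on leaving out DMSO 1 (limma adjusted p = 0.11), DMSO 2 (limma adjusted p = 0.074) or OTI-611 3 (limma adjusted p = 0.096), and under 3 further alternatives. Without DMSO 1, 2 receptor genes rose and 5 fell.

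Of 21 adaptor genes of the TNF and interleukin-1 arms, 8 rose, 7 fell and 6 missed the threshold (median 0.073). TAB2, a ubiquitin-binding partner of the kinase TAK1, had 28.2, 28.1 and 29.4 RPKM with OTI-611, against 18, 16.5 and 17.5 RPKM with DMSO, a log2 fold change of 0.69. IRAK1 (0.49), BCL10 (0.65) and TIFA (1.06), all of which help to form signalling complexes, rose on the log2 scale. TRADD (-0.50), the first adaptor at TNFRSF1A, and IRAK3 (-0.66), an inhibitory IRAK, fell.

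Of 18 ubiquitin regulators listed, 16 could be tested, of which 10 rose, 3 fell and 3 missed the threshold (median 0.18), where 27.8% of all genes rose and 37.3% fell. TNIP2, a protein that binds the TNFAIP3 product, had 40.9, 42.3 and 41.6 RPKM with OTI-611, against 28, 29.8 and 27.5 RPKM with DMSO. Its log2 fold change was 0.53 ± 0.036 (SE, limma adjusted p = 1.70e-06). RNF11 (0.46), a further partner of the TNFAIP3 product, OTUD7B (0.55), a deubiquitinase of the same family, and RBCK1 (0.41), a subunit of the linear ubiquitin ligase, also rose on the log2 scale. CUL1 (-0.50), the scaffold of the ligase that marks IkB and shares 10.9% of its exon bases with other genes, and ZC3H12A (-0.69), a ribonuclease that degrades cytokine messenger RNA, fell. Of the genes under the minimum for testing, TNIP3 did not exceed 0.669 RPKM. RNF31 did not exceed 0.0321 RPKM, and its level is uncertain, since 39.1% of its exon bases are shared with other genes, mainly on the same strand.

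Of 13 co-regulator genes, 5 rose, 2 fell and 6 missed the threshold (median 0.13). SIRT1, a deacetylase that acts on RELA, had 37.9, 38.9 and 38.8 RPKM with OTI-611, against 18, 18.8 and 19.0 RPKM with DMSO, a log2 fold change of 1.01 ± 0.033 (SE, limma adjusted p = 2.72e-08). The coactivator gene NCOA3 (0.42) and the acetyltransferase gene CREBBP (0.26) rose on the log2 scale. The deacetylase gene HDAC1 (-0.51) fell.

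Of 41 other genes listed as known NF-kB targets, 29 could be tested, of which 12 rose, 12 fell and 5 missed the threshold (median -0.013), where 27.8% of all genes rose and 37.3% fell. Without DMSO 1, 11 rose and 13 fell, and without DMSO 3, 13 rose and 9 fell. CSF1, a macrophage growth factor, had 16.7, 14.9 and 16.6 RPKM with OTI-611, against 37, 38.2 and 38.3 RPKM with DMSO, a log2 fold change of -1.19 ± 0.045 (SE, limma adjusted p = 6.32e-08). CCL20, a chemokine, had 1.44, 0.893 and 1.45 RPKM with OTI-611, against 5, 4.78 and 5.66 RPKM with DMSO, a log2 fold change of -1.45. CXCL2 (-0.55), also a chemokine, and the kinase gene NUAK2 (-0.64) fell as well. CXCL8, the chemokine interleukin-8, had 81.4, 83.3 and 86.6 RPKM with OTI-611, against 62, 61.7 and 66.5 RPKM with DMSO, a log2 fold change of 0.40. BCL2L1, which encodes a guard against apoptosis, rose by 0.41, although 43% of its exon bases are shared with other genes, mainly on the opposite strand.

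**Figure D5:**
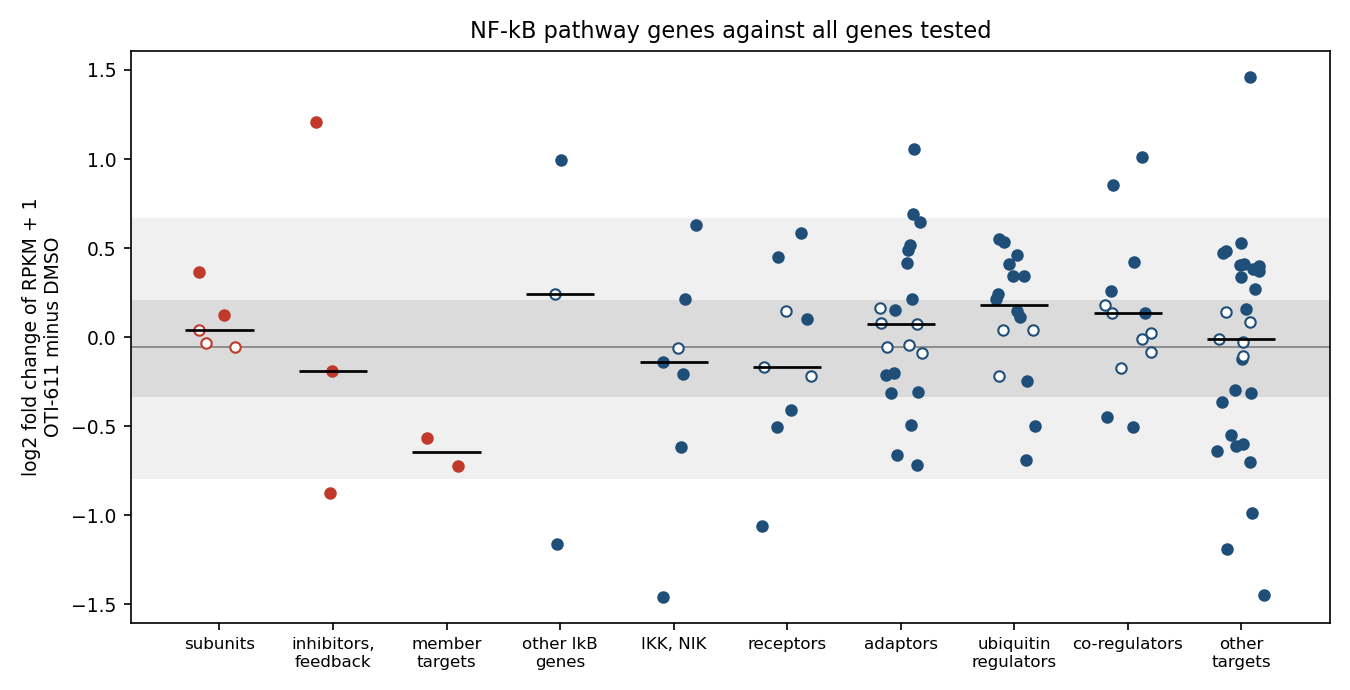
Log2 fold change of RPKM + 1 (OTI-611 minus DMSO) of each tested gene, by list, with the 10 genes in red on the left and the pathway lists in blue. Filled points passed an adjusted p of 0.05, open points did not, and black lines are list medians. The shaded bands hold the central part of all 11978 genes tested, from -0.33 to 0.20 (dark) and from -0.79 to 0.66 (light). Of the 10 genes, TNFAIP3 at 1.21 and NFKBIA at -0.88 lie outside the light band.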

How the data were processed

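RNA was taken from DU145 cells after treatment with OTI-611 or DMSO, 3 libraries each. Per the labels' protocols, messenger RNA was amplified by the Geo-seq method and made into libraries with a transposase kit. Per the submitters' processing notes, CASAVA 1.7, FastQC, TopHat2 2.0.9, Cufflinks 2.1.1 and HTSeq were used, with no role given, and the build named is mm10, a mouse build. All 32692 gene IDs are human, so the build and annotation behind the values are not established. The authors deposited 5 columns taken here as RPKM (FPKM would look alike, and the reads estimated here would then be fragments). For DMSO 1 the authors deposited whole numbers, entered here as a score.

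Genes averaging 1 or more in the fitted libraries were tested on the scale log2(value + 1) with limma 3.58.1 in R 4.3.3. The model held the treatment alone, with limma's trend, and two-sided p-values were adjusted over every gene tested after Benjamini and Hochberg, with a threshold of 0.05. This scale understates the change of low genes. The count tests named in the design were not run, because the table holds no counts. Depth was estimated as the number of reads at which low values times exon length (GENCODE release 29) came closest to whole numbers; 72.2% to 73.4% were within 0.05 of one. Squared differences between libraries of a group were 3.29 to 5.12 times the counting expectation, so none looked like 1 library deposited again; its whole numbers leave DMSO 1 out of that comparison. Simulated data were used to test the model. The 10 genes and all lists were chosen with earlier results of these data known. Named list genes were any tested gene of lists of up to 8, and the 6 with the smallest p of longer lists, besides BIRC2 and genes named as untested; 2 genes that this rule names are not reported here. A planned comparison of protein sequences was not made. Promoter sequences are RefSeq's (GRCh38.p14). Alternatives were each library left out, other pseudocounts, filters and scalings, all libraries cut to whole numbers, no trend and a replicate block.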

Additional observations from a re-analysis of the deposited data

How the results depend on the processing

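The 10 genes gave 149 values over 15 alternatives (REL was not tested at a mean of at least 5), of which 133 kept their direction and their side of the threshold, and 1, REL with all libraries cut to whole numbers, came to 0. TNFAIP3, NFKBIA, TNFAIP2, BIRC3, RELB and RELA kept both in all 15. The call for NFKBIE was lost with no filter on low values (-0.19, limma adjusted p = 0.17), with all libraries cut to whole numbers (-0.20, limma adjusted p = 0.14), after quantile normalization (-0.16), after rescaling to the median log ratio (-0.14) and without the trend (-0.19, limma adjusted p = 0.088), and leaving out 1 library gave -0.25 to -0.12. Genes that had not passed changed sign: REL to 0.051 after quantile normalization and 0.0021 after rescaling, NFKB2 to 0.023 after rescaling and between -0.094 and 0.013 on leaving out 1 library, and NFKB1 to between -0.011 and 0.072 on leaving out 1 library. Of 210 list counts, 6 moved by over 1.5 times: receptors lower to 5 without DMSO 1, other IkB genes higher to 2 without DMSO 3 and under both scalings, and, where fewer genes were tested at a mean of at least 5, receptors lower to 1 and targets lower to 6. Of 38 named pathway genes called, 36 kept their call throughout, and of the epithelial markers KRT19 lost its call in 7 alternatives. Libraries with the same number did not deviate together (r = 0.019, 0.00041 and -0.058), and 0 of 3 OTI-611 libraries correlated best with the DMSO library of their number; with the replicate block 7756 genes passed, against 7805, and no call among the 10 genes changed. Depth is unknown for DMSO 1, and dropped decimals limit it most for REL.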
